A study of Mus musculus with 2 samples.

Results

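Small leucine-rich proteoglycans were described in 2 single-cell RNA libraries from the metaphyseal bone of mice, by cell class and by treatment. The family members were chosen by gene symbol, and all 10 of them (Bgn, Dcn, Fmod, Lum, Aspn, Ogn, Omd, Prelp, Epyc and Chad) were found among the 27998 genes of the count matrices. Both libraries came from Gli1-CreERT2; Ai9 mice of mixed background, in which tamoxifen lets a Gli1-driven recombinase switch on the red reporter tdTomato in Gli1-expressing cells and their progeny. All mice were 1 month old and had received tamoxifen daily for 3 days. One group was then injected with vehicle for 3 days and the other with teriparatide, an active fragment of parathyroid hormone (PTH), at 400 ng/g body weight i.p. for 3 days. The epiphysis had been removed, the remaining cancellous region of the femur was digested with collagenase, and tdTomato+CD31-CD45-Ter119- cells were sorted. Each condition was 1 library that pooled mice of both sexes, so the treatment, the library and the mice in it cannot be told apart, and no test between conditions was possible.

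Small leucine-rich proteoglycans are secreted proteins of the extracellular matrix that carry a curved stack of leucine-rich repeats. Many bind collagen fibrils and influence how the fibrils grow and pack, and several hold growth factors such as TGF-beta in the matrix. Class I members (biglycan, decorin, asporin) and class II members (fibromodulin, lumican, osteomodulin, Prelp) differ from class III (epiphycan, osteoglycin) and from chondroadherin in their repeats and in the sugar chains they carry. In the skeleton, biglycan and decorin are known from bone matrix, osteomodulin from mineralising bone, and epiphycan and chondroadherin from cartilage.

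The vehicle library held 1286 barcodes and 10567335 UMIs, and the teriparatide library 2142 barcodes and 26270041 UMIs, with 2 barcode sequences in common. After cells with under 200 or over 6000 genes or over 10% mitochondrial UMIs were left out, 549 and 1217 cells remained. Cells were assigned to classes by per-cell scores over marker lists that contained no family member. In the order vehicle and teriparatide, this gave 64 and 263 chondrocyte-like osteoprogenitor (COP-like) cells, 121 and 147 osteoblast-like (OB-like) cells, 20 and 34 preosteoblast-like (preOB-like) cells, 182 and 100 cells like marrow adipogenic lineage progenitors (MALP-like), and 8 and 21 hypertrophic chondrocyte-like cells. Blood cells, which the sort should remove, made up 45 and 163 erythroid-like and 49 and 366 hematopoietic-like cells. They served as the background for free RNA. Of the mesenchymal cells with a sex call from Xist and Y-linked transcripts, 51.8% were male in the vehicle library and 90% in the teriparatide library. The study gave the same numbers of male and female mice for both groups. The ratios of the family members between the libraries were therefore also computed within each sex, where a class had cells of that sex.

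Of the 10 genes, 8 lie in 3 groups of neighbours (GRCm38, GENCODE vM21 annotation). Aspn (chr13:49544443-49567565), Omd (chr13:49582462-49592822) and Ogn (chr13:49608046-49624501) follow each other on the plus strand with gaps of 14.9 and 15.2 kb and no other coding gene between them. Dcn, Lum and Epyc lie on chromosome 10 with gaps of 47.0 and 71.4 kb, and only Kera, which had 0 UMIs in the 4 classes, lies between Lum and Epyc. Prelp and Fmod point away from each other on chromosome 1, 116 kb apart. Bgn is on chromosome X and Chad on chromosome 11. To set the levels described below beside the genes' starts, the 150 bases before the start of the 3 adjacent genes of chromosome 13 and of 3 genes highest in COP-like cells among the 4 main classes are shown here from the RefSeq promoter table (GRCm38.p6), which held 8 of the 10 members and not Dcn or Lum. Each is written in the direction of transcription, at chr13:49544293-49544442 (plus strand) for Aspn, chr13:49582312-49582461 (plus) for Omd, chr13:49607865-49608014 (plus) for Ogn, chr1:133921402-133921551 (minus) for Prelp, chr10:97643918-97644067 (plus) for Epyc and chr11:94564897-94565046 (plus) for Chad.
Aspn: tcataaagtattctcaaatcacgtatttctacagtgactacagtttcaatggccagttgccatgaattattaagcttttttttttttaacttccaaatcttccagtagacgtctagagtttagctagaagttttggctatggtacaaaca
Omd: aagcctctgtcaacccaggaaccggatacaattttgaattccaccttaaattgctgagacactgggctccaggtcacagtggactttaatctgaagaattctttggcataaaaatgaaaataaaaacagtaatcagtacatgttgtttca
Ogn: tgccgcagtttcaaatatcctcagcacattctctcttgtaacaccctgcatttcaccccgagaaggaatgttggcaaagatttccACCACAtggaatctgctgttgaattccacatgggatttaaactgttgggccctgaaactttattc
Prelp: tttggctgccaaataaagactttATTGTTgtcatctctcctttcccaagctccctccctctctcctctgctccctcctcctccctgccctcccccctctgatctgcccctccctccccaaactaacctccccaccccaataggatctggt
Epyc: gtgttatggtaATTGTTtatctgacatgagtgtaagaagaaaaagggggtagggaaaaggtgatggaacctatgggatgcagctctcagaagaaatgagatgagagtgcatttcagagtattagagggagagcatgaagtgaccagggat
Chad: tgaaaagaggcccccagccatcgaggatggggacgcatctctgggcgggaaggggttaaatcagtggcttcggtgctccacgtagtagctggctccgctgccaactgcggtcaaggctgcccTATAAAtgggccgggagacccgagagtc
Capitals mark the letters of 3 short motifs searched on both strands: TGTGGT (the core bound by RUNX factors), AACAAT (bound by SOX factors) and TATAAA (the TATA box). The motifs share no position in the windows shown. The RUNX letters occurred once before Ogn, the SOX letters once each before Prelp and Epyc, and the TATA letters once before Chad. Over the same windows of 32851 promoters, 8.40% held the RUNX letters, 5.31% the SOX letters and 7.57% the TATA letters. None of the 3 was found before Aspn, Omd, Bgn or Fmod. Fmod, whose window is not shown, was also highest in COP-like cells among the 4 main classes.

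The family transcripts were carried by the mesenchymal cells. They made up 0.747% and 0.830% of all UMIs of COP-like cells in the vehicle and teriparatide libraries, 0.895% and 0.665% in OB-like cells, 1.39% and 0.967% in preOB-like cells, and 0.492% and 0.442% in MALP-like cells. In hematopoietic-like cells the share was 0.000645% and 0.00200%, and in erythroid-like cells 0.00123% and 0.00177%. No single member exceeded 8.18 CPM (UMIs of a gene per 1000000 UMIs of the class) in either kind of blood cell. Levels are given as CPM of the summed UMIs of a class. Their 95% intervals (exact Poisson for a level, exact binomial for a share or a ratio) cover counting error only, not the spread between mice. A UMI here marks 1 captured transcript end, so levels are compared between classes for the same gene and not between genes.

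**Figure D1:**
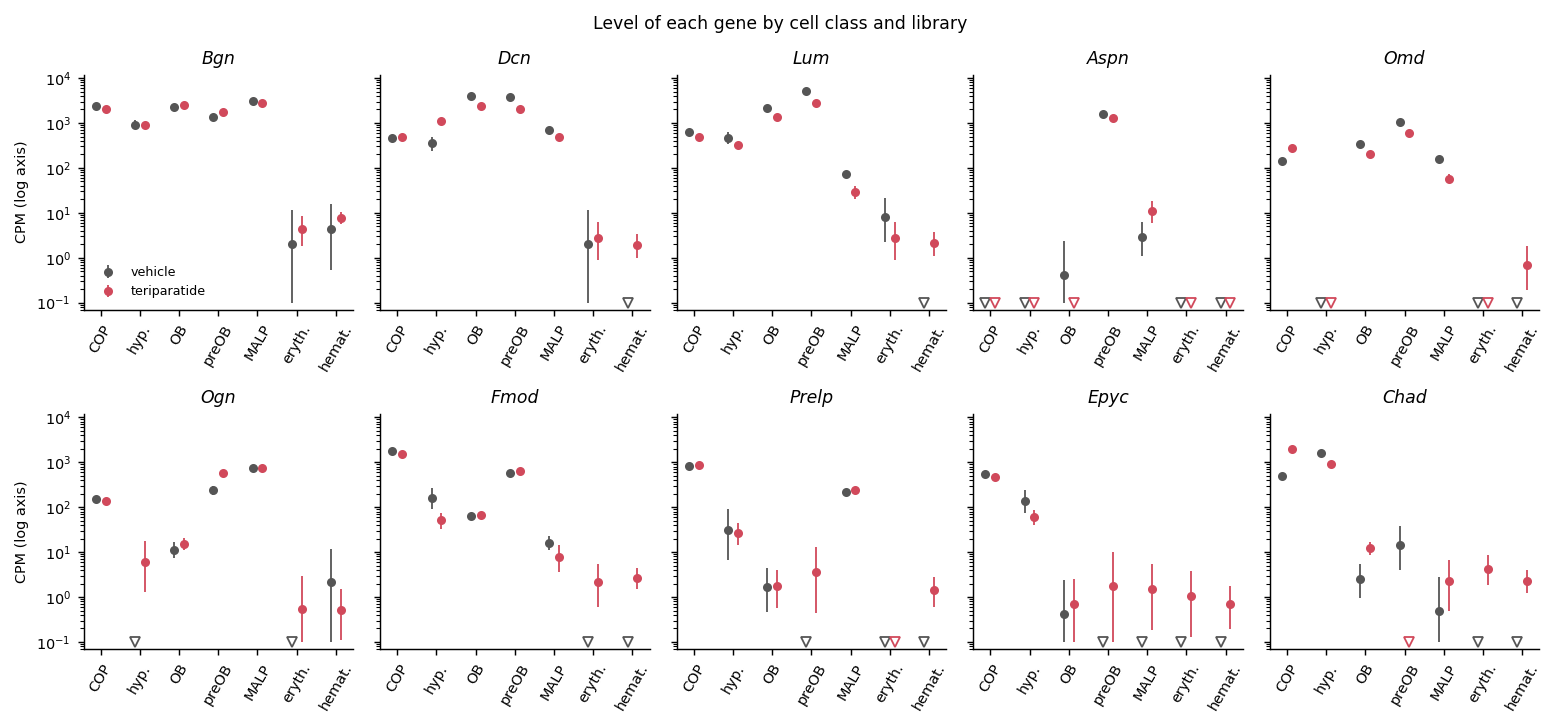
Level of each member in CPM (log axis) by cell class in the vehicle (grey) and teriparatide (red) libraries. Points are CPM of the summed UMIs with exact Poisson 95% intervals, cut off at 0.1 CPM, and open triangles mark 0 UMIs. Aspn stands out in preOB-like cells (1618 and 1268 CPM), and Epyc, Chad, Prelp and Fmod in COP-like cells, with Chad also high in hypertrophic-like cells.

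Among class I members, Bgn was broad and Aspn was restricted. Bgn, which encodes biglycan, was highest in MALP-like cells, with 3042 CPM (2967 to 3119) under vehicle and 2820 CPM (2729 to 2913) under teriparatide. It was also at 2356 and 2018 CPM in COP-like cells, 2316 and 2567 CPM in OB-like cells and 1389 and 1731 CPM in preOB-like cells. COP-like and OB-like cells of the vehicle library did not differ in Bgn beyond counting error. The lead of MALP-like over COP-like cells in the vehicle library turned around in female cells, where the log2 ratio was -0.33. Dcn, which encodes the fibril-binding decorin, was highest in OB-like cells (4086 CPM in vehicle and 2405 in teriparatide), followed by preOB-like cells (3767 and 2019 CPM). The OB-like over preOB-like difference was small, 0.12 (0.02 to 0.21) and 0.25 (0.16 to 0.34) on the log2 scale. It turned to -0.55 in male vehicle cells and to -0.37 in teriparatide cells thinned to 3400 UMIs each, so these neighbours have no firm order. In MALP-like cells Dcn was at 689 and 495 CPM, and in COP-like cells at 473 and 499 CPM. Aspn, which encodes asporin, a relative of decorin that competes with it for collagen, was at 1618 CPM (1471 to 1776) and 1268 CPM (1176 to 1364) in preOB-like cells. The next class was MALP-like with 2.94 and 10.8 CPM. No Aspn UMI was found in COP-like cells of either library, which allows up to 1.67 and 0.377 CPM at 3 counts.

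Class II members were split between bone-forming and cartilage-like cells. Lum, which encodes the fibril organiser lumican, was highest in preOB-like cells (5207 CPM in vehicle and 2838 in teriparatide), then in OB-like cells (2118 and 1376 CPM) and COP-like cells (641 and 483 CPM). With clusters in place of the marker scores, the vehicle order of preOB-like and OB-like cells turned around (log2 ratio -0.11). Omd, which encodes osteomodulin, a mineral-binding protein of bone, was also highest in preOB-like cells, at 1069 and 588 CPM. The next class for Omd was OB-like in the vehicle library (349 CPM) and COP-like in the teriparatide library (271 CPM). Fmod, which encodes fibromodulin, was highest in COP-like cells at 1815 and 1567 CPM, with preOB-like cells next at 589 and 630.3 CPM. Prelp, which encodes a heparin-binding member that anchors to basement membranes and collagen, was at 845 and 861 CPM in COP-like cells and at 214 and 243 CPM in MALP-like cells. In OB-like cells Prelp was at 1.69 and 1.76 CPM, close to the 1.41 CPM of teriparatide hematopoietic-like cells.

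The class III members were highest in different cell classes. Among the 4 main classes Chad, like Epyc, was highest in COP-like cells. Ogn, which encodes osteoglycin (mimecan), was highest in MALP-like cells at 730.2 CPM (694 to 768) and 755 CPM (709 to 804). PreOB-like cells followed with 236 and 591 CPM, and OB-like cells had 11.4 and 15.1 CPM. In female teriparatide cells, of which 4 were preOB-like, the order of MALP-like and preOB-like cells turned around (log2 ratio -0.84). Epyc, which encodes epiphycan, a proteoglycan of growth cartilage, was at 560.1 and 461 CPM in COP-like cells, at 138 and 59.4 CPM in hypertrophic-like cells and at most 1.78 CPM in the osteoblast, preosteoblast and marrow adipogenic classes. Chad, which encodes chondroadherin, a cartilage protein that binds collagen and integrins, was at 486 and 2008 CPM in COP-like cells and at 1646 and 898 CPM in hypertrophic-like cells. In the vehicle library Chad was thus higher in hypertrophic-like than in COP-like cells, whereas Epyc was lower there in both libraries. Of the adjacent genes on chromosome 13, Aspn and Omd were both highest in preOB-like cells and Ogn in MALP-like cells. On chromosome 1, Prelp and Fmod were both highest in COP-like cells among the 4 main classes. On chromosome 10, Epyc was highest in COP-like cells, while Dcn and Lum led in OB-like and preOB-like cells, an order that turned under other settings for each gene.

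The share of cells with a UMI was set beside the level of each gene. It depends on that level, so a low share of a gene with few UMIs does not show use by only part of a class. Cells with at least 3400 UMIs were thinned to 3400 each for this count, and cells with fewer were left out. Shares without thinning are over all cells of the class and can be higher or lower. Bgn was found in 91.8% of 147 teriparatide OB-like cells without thinning, and in 96.7% of 120 thinned ones. Bgn was found in 97.3% to 100% of thinned vehicle cells of the 4 main classes, and Fmod in 92.1% and 92.7% of COP-like cells. Aspn reached only 55.0% of thinned vehicle preOB-like cells and 40.6% of teriparatide ones, although the level of the class was high. Without thinning these shares were 60% and 50%, and the 5 cells with the most Aspn gave 87.9% and 86.9% of its UMIs. Ogn was found in 85.0% and 72.3% of thinned MALP-like cells (92.3% and 86.0% without thinning). Prelp was found in 39.4% and 34.0% of the same cells (56.0% and 61.0% without thinning). COP-like cells carried the most members at once, with a median of 6 of the 10 genes per thinned cell in both libraries, against 5 in preOB-like cells and 3 in OB-like and MALP-like cells. The median was 0 in erythroid-like and hematopoietic-like cells.

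**Figure D2:**
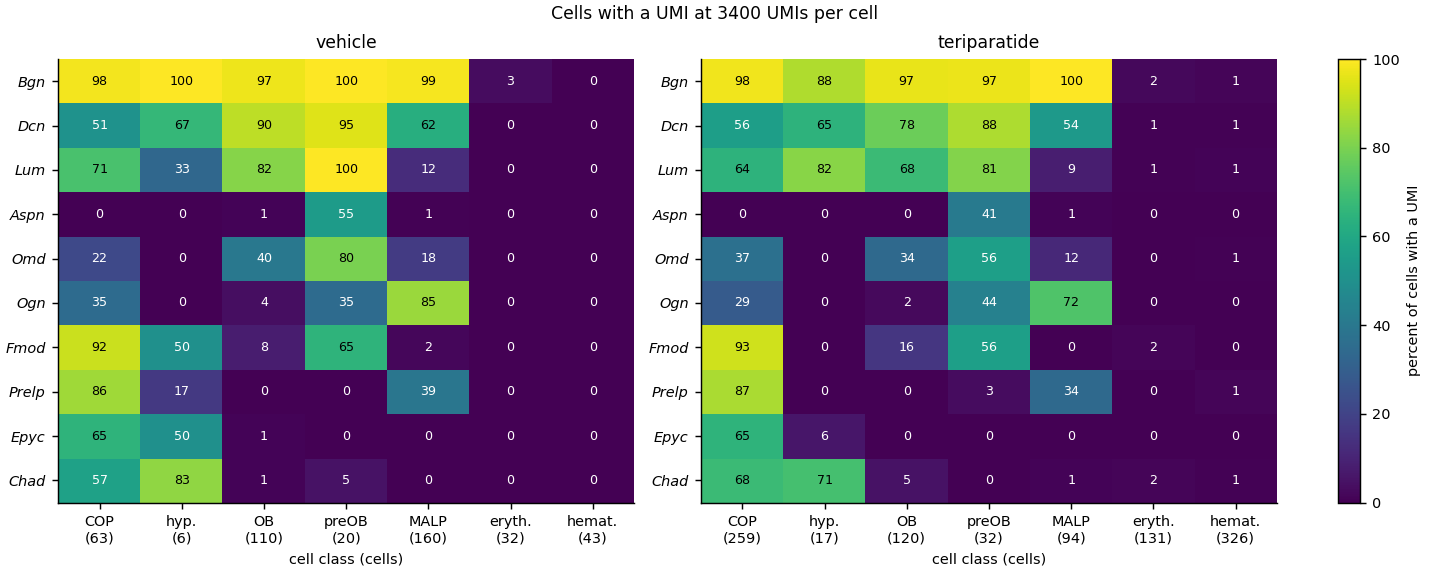
Percent of cells with at least 1 UMI of each member after thinning to 3400 UMIs, by cell class (number of cells in brackets), for the vehicle and teriparatide libraries. Cells with fewer than 3400 UMIs were left out. Bgn is found in at least 88.2% of cells of all 5 mesenchymal classes, Ogn is most frequent in MALP-like cells (85.0% and 72.3%) and both blood columns stay near 0.

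Within COP-like cells several members varied with a score of resting chondrocyte markers (Sfrp5, Cpm, Hhip, Pthlh and Ucma). This score took no family member, and 18 vehicle and 85 teriparatide cells lay above 0.4, with 6 and 29 cells within 0.05 of that value. Of the male cells 34.6% and 35.7% lay above 0.4, but of the 9 and 25 female cells only 0% and 4%. The split by score is therefore also in part a split by sex, and the part of sex in the contrasts below was not tested. Fmod was at 2964 and 2545 CPM in cells above 0.4 and at 1477 and 1194 CPM in the others. Dcn was at 882 and 857 CPM above 0.4 and at 353 and 363 CPM below. Ogn went the same way, with 221 and 314 CPM above and 128 and 66.8 CPM below. Epyc went the other way, with 236 and 302 CPM above and 655 and 521 CPM below, and so did Lum, with 327 and 387 CPM above and 733 and 519 CPM below. Bgn was at 2360.2 and 1860.1 CPM above and 2355 and 2078 CPM below. Prelp was lower above 0.4 only among vehicle cells, with 553 and 880.5 CPM above and 930.5 and 853 CPM below. Across thinned teriparatide COP-like cells (n = 259, 1 library), the Spearman correlation with the score was 0.53 for Fmod and -0.58 for Chad. Across vehicle cells (n = 63) it was 0.50 for Fmod and -0.17 for Chad. These are descriptions over cells that share a library.

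Chad was the member that differed most between the 2 libraries in COP-like cells. It stood at 486 CPM (455 to 520) without and 2008 CPM (1977 to 2039) with teriparatide, a log2 ratio of 2.05 (1.95 to 2.15). Single vehicle cells ranged from 0 to 4464 CPM with a median of 209.8, and single teriparatide cells from 0 to 12426 CPM with a median of 764. The share of cells over 1000 CPM was 15.6% (7.76 to 26.9) against 44.5% (38.4 to 50.7). This contrast rests on the male cells, with 11.5% (4.35 to 23.4) against 43.6% (37.1 to 50.3). In female cells the share was 44.4% (13.7 to 78.8) against 48.0% (27.8 to 68.7). The cells of the libraries overlapped over the whole range of the vehicle library. The difference lay in cells with a resting score up to 0.4, where Chad was at 536 and 2679 CPM (log2 ratio 2.32, 2.21 to 2.43). In cells above 0.4 it was at 317 and 250.01 CPM (-0.34, -0.62 to -0.05). In the cells up to 0.4, Col10a1, the collagen of hypertrophic chondrocytes, was at 2.17 CPM without and 833 CPM with teriparatide, and its part in the Chad difference was not tested. Within sex, the log2 ratio of Chad was 2.26 (2.14 to 2.37) in male cells (52 and 227) and 0.65 (0.44 to 0.88) in female cells (9 and 25). In hypertrophic-like cells Chad was lower in the teriparatide library, at 898 against 1646 CPM, a log2 ratio of -0.87 (-1.14 to -0.60) from 8 and 21 cells. Of these cells 4 and 14 were called male, none was called female and the rest had no sex call. In the vehicle library 5 cells gave 99.4% of the Chad UMIs of this class.

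**Figure D3:**
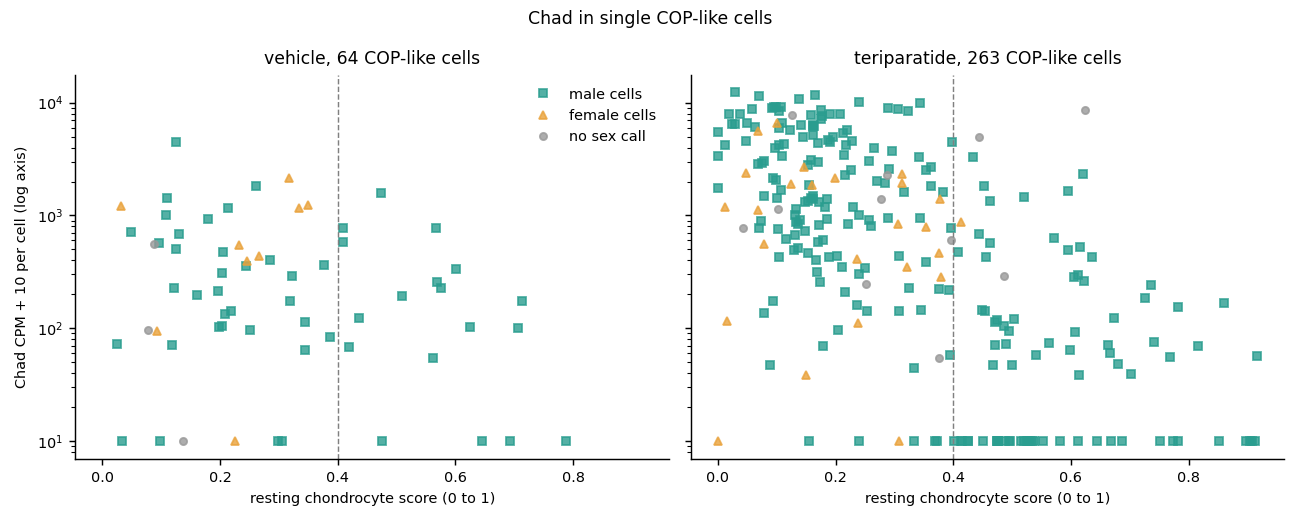
Chad CPM plus 10 (log axis) against the resting chondrocyte score in single COP-like cells of the vehicle (64 cells) and teriparatide (263 cells) libraries. Squares are male, triangles female and circles cells with no sex call, and the dashed line is a score of 0.4. Cells over 1000 CPM make up 15.6% of the vehicle and 44.5% of the teriparatide cells and lie mostly left of the line. The shares are 11.5% and 43.6% in male cells, and 44.4% and 48.0% in female cells.

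Within OB-like cells, Dcn, Lum and Omd were nearly absent from cells with Mepe, a gene of late osteoblasts and osteocytes. Cells with at least 2 Mepe UMIs numbered 7 among vehicle and 24 among teriparatide cells. In the other OB-like cells Dcn was at 4162 and 2587 CPM, and in Mepe cells it was at 0 CPM in the vehicle library (at least 60.3-fold lower, taking 3 counts as the limit) and 49.1 CPM (23.5 to 90.2) in the teriparatide library. Lum was at 2158 and 1481 CPM in the others, with 0 and 2 UMIs in Mepe cells. Omd was at 356 and 223 CPM in the others, with no UMI in Mepe cells of either library, which makes it at least 5.16-fold and 15.2-fold lower. Bgn remained in Mepe cells at 1081 and 1359 CPM, against 2339 and 2660.4 CPM in the others. The Mepe cells also had less Col1a1 (1242 and 11342 CPM against 135614 and 115309) and more Dmp1, an osteocyte gene (16427 and 17974 CPM against 456 and 947). Both genes were among the markers that scored OB-like cells, so the Dmp1 level may in part come from that scoring. Phex, an osteocyte marker that scored no class, was at 1588 and 1967 CPM against 184 and 254. The Mepe cells were shallower, with a median of 5595 and 7086.5 UMIs against 14536 and 17316. Dcn and Lum varied together over single cells, with a Spearman correlation of 0.65 and 0.58 in thinned OB-like cells (n = 110 and 120) and 0.74 and 0.73 in preOB-like cells (n = 20 and 32), and of only 0.11 and 0.12 in COP-like cells. The thinned OB-like cells included 7 and 22 Mepe cells, in which both genes were nearly absent. The correlation without the Mepe cells was not computed. All of the values are descriptions over cells that share a library.

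**Figure D4:**
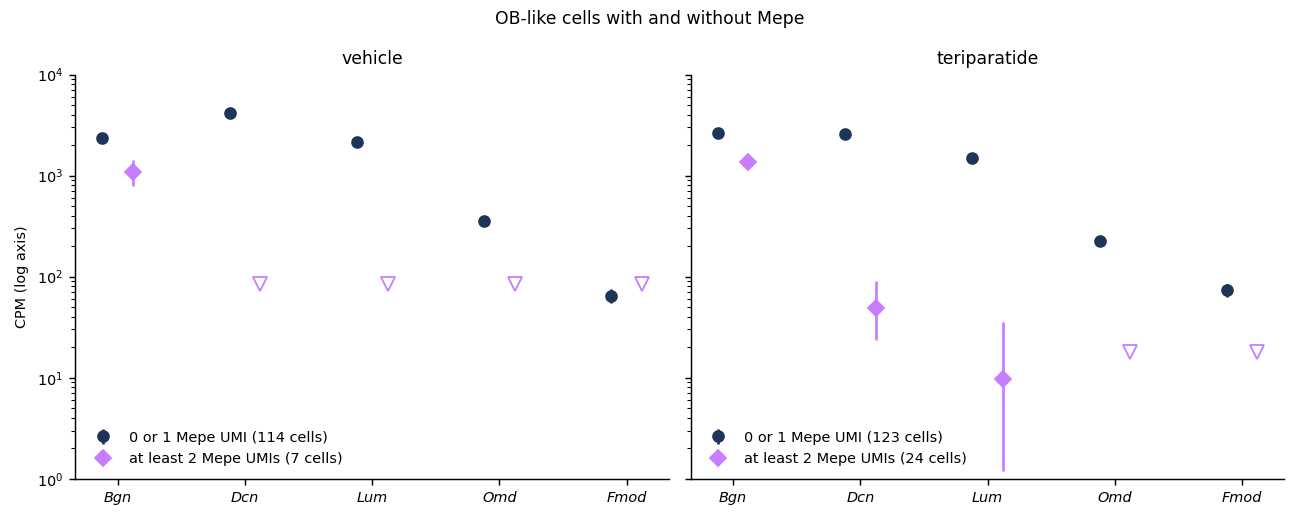
Level of 5 members in CPM (log axis) in OB-like cells with 0 or 1 Mepe UMI (circles) and with at least 2 (diamonds), for both libraries. Bars are exact Poisson 95% intervals, and open triangles mark the upper 95% limit where there was no UMI. Bgn stays near 1000 CPM in Mepe cells while Dcn, Lum and Omd have at most 49.1 CPM there.

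Between the libraries, a member was counted as higher or lower where it had at least 50 UMIs in the class, differed by at least 1.5-fold and had an interval that excluded no change. In COP-like cells 2 of 9 members counted were higher in the teriparatide library (Chad and Omd), where 5.83% of 9184 genes were, and none was lower, where 14.8% of genes were. The median log2 ratio was -0.15 over the 9 members and -0.21 over all genes. Omd stood at 142 CPM (125 to 161) without and 271 CPM (260 to 283) with teriparatide, a log2 ratio of 0.93 (0.74 to 1.12). In male cells its ratio was 0.96, and in female cells it was -1.29 (-2.22 to -0.33) from 18 and 25 UMIs, so the direction rests on the male cells. Bgn, Fmod, Epyc, Lum, Prelp, Dcn and Ogn had log2 ratios between -0.41 and 0.08 over all cells. In female cells Dcn was lower by the fold (-0.60, -0.98 to -0.22, from 85 and 190 UMIs), and in male cells its ratio was 0.06.

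In OB-like cells 3 of 6 members were lower in the teriparatide library, Dcn, Lum and Omd, where 9.62% of 6672 genes were. None was higher, where 5.55% of genes were. The median log2 ratio was -0.26 over the 6 members and -0.11 over all genes. Dcn was at 4086 CPM (4005 to 4168) against 2405 CPM (2348 to 2463), a log2 ratio of -0.76 (-0.81 to -0.72). Lum was at 2118 against 1376 CPM, a ratio of -0.62 (-0.68 to -0.56). Omd was at 349 against 207 CPM, a ratio of -0.75 (-0.91 to -0.60). These differences were not of the same size in the sexes. In male cells (38 and 94), Dcn was at 2920 and 2537 CPM (log2 ratio -0.20), Lum at 1649 and 1462 CPM (-0.17) and Omd at 182 and 231 CPM (0.34), and none of them passed the fold. In female cells (62 and 10), Dcn was at 4704 and 1178 CPM (-1.997), Lum at 2363 and 973 CPM (-1.28) and Omd at 422 and 47.1 CPM (-3.16). The OB-like class was mostly female in the vehicle library and mostly male in the teriparatide library, and the difference between the sexes was not tested. Without the Mepe cells the ratios were -0.69 for Dcn, -0.54 for Lum, which then missed the fold, and -0.67 for Omd. Bgn was at 2316 and 2567 CPM, a ratio of 0.15 (0.10 to 0.20). Within sex the Bgn ratio was 0.04 (-0.03 to 0.12) in male and -0.21 (-0.36 to -0.07) in female cells.

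In preOB-like cells 3 of 7 members were lower in the teriparatide library, again Dcn, Lum and Omd, where 15.1% of 2419 genes were. One member, Ogn, was higher, where 7.73% of genes were. The median log2 ratio was -0.35 over the 7 members and -0.15 over all genes. Dcn was at 3767 against 2019 CPM (log2 ratio -0.90), Lum at 5207 against 2838 CPM (-0.88) and Omd at 1069 against 588 CPM (-0.86). Ogn was at 236 CPM without and 591 CPM with teriparatide (1.32, 0.94 to 1.73). The call was lost in male cells (0.56, -0.12 to 1.32) and was 2.60 in female cells, of which 4 had received teriparatide, and 5 cells gave 69.9% of the teriparatide UMIs. The summed level of the 5 MALP markers in the same class was 319.97 and 963 CPM (Cxcl12 145 and 628 CPM), and that of the 4 tendon markers 342 and 40.9 CPM (Thbs4 276 and 32.0 CPM). None of these markers was at 0 in either library, and their part in these ratios was not tested. Aspn was at 1618 and 1268 CPM over all cells (-0.35), but at 3421 and 1472 CPM in male cells (-1.22) and at 1539 and 317 CPM in female cells (-2.28), so it passed the fold within each sex and not over both. Over all cells Fmod was at 589 and 630.3 CPM (0.10) and Bgn at 1389 and 1731 CPM (0.32). Within sex, Bgn passed the fold in male cells (0.94, 0.48 to 1.43) and was at 0.48 in female cells. Fmod passed it downward in female cells (-1.12, -1.81 to -0.48) and was at -0.09 in male cells. This class was small, with 4 male and 11 female cells of known sex in the vehicle library and 23 and 4 in the teriparatide library, and the 5 cells with the most Lum gave 78.4% of its vehicle UMIs. Dcn, Lum and Omd were lower in both sexes, with log2 ratios of -0.97, -1.67 and -1.53 in male cells and -2.32, -1.70 and -2.14 in female cells. With clusters in place of the marker scores, which assigned 64 and 54 cells to this class, the ratios were -0.12 for Dcn and 0.090 for Lum, and only Omd remained lower by the fold (-0.64). Omd was also the only one past the fold at a mitochondrial limit of 20% (Dcn -0.57, Lum -0.36, Omd -0.84) and after thinning (Dcn -0.46, Lum -0.50, Omd -0.85).

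In MALP-like cells 2 of 6 members were lower in the teriparatide library, where 7.86% of 7453 genes were, and none was higher, where 6.79% of genes were. The median log2 ratio was -0.29 over the 6 members and -0.06 over all genes. Lum was at 72.5 against 28.6 CPM (-1.34, -1.90 to -0.82) and Omd at 155 against 57.9 CPM (-1.42, -1.80 to -1.05). Both are minor transcripts of this class, found in 12.5% and 17.5% of thinned vehicle cells, and with clusters in place of the scores the ratio of Omd was -0.11. Over all cells the main members of the class had ratios closer to 0: Bgn was at 3042 and 2820 CPM (-0.11), Ogn at 730.2 and 755 CPM (0.05), Prelp at 214 and 243 CPM (0.18) and Dcn at 689 and 495 CPM (-0.48). Within sex, Prelp passed the fold in male cells (0.66, 0.36 to 0.96) and was at 0.07 in female cells. Dcn passed it downward in female cells (-0.83, -1.31 to -0.38) and was at -0.44 in male cells. Bgn and Ogn passed it in neither sex, and Lum and Omd were lower by the fold in both. The female ratios rest on 69 and 1 UMIs of Lum and 133 and 4 UMIs of Omd, with 9 teriparatide cells. In hypertrophic-like cells, 1 of 4 members was higher (Dcn) and 1 was lower (Chad, above), where 14.9% and 12.5% of 1251 genes were. Dcn was at 350.5 against 1093 CPM (1.64, 1.13 to 2.19), and 5 cells gave 78.2% of its teriparatide UMIs.

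**Figure D5:**
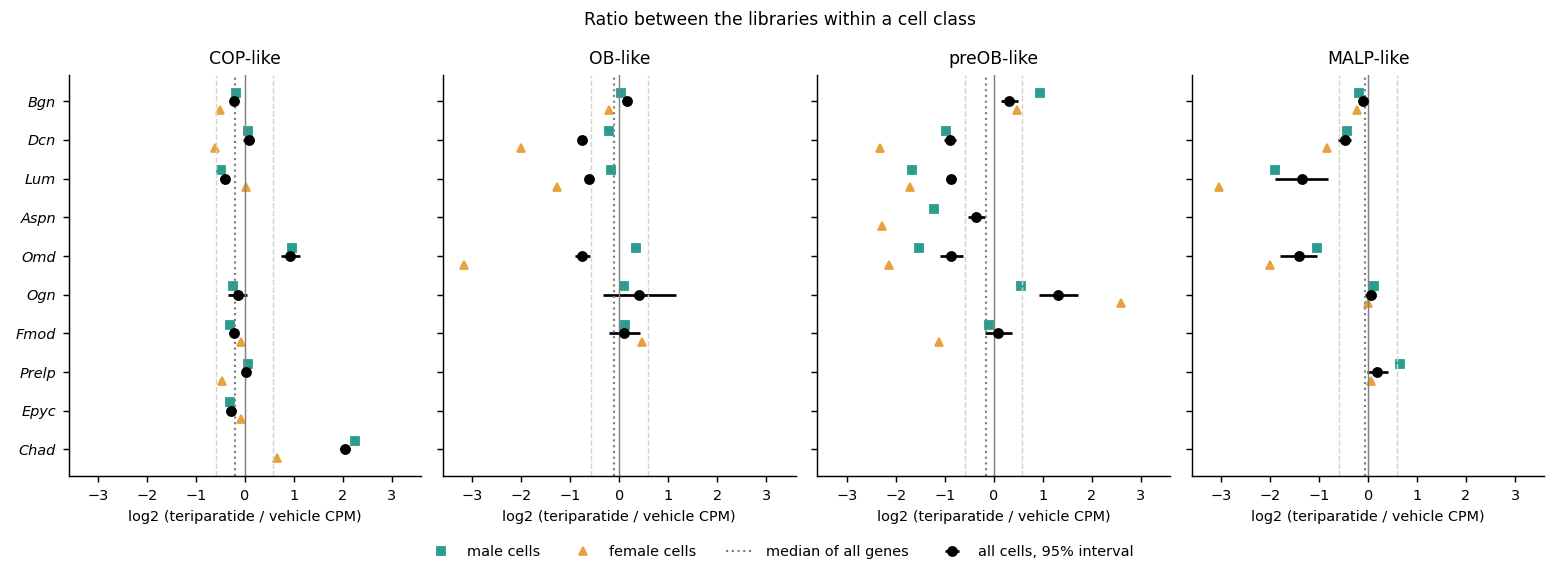
Log2 ratio of teriparatide to vehicle CPM for each member with at least 50 UMIs, in 4 cell classes. Black points are all cells with the exact 95% interval, squares male and triangles female cells (at least 50 UMIs in the sex), the dotted line the median of all genes and the dashed lines a 1.5-fold difference. In OB-like cells Dcn, Lum and Omd lie left of the dashed line for all cells and between -0.20 and 0.34 for male cells.

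The genes around the family were described by 3 lists, and their ratios were not computed within each sex. Of 9 other leucine-rich relatives, at most 3 had 50 UMIs in a class. Podnl1 was lower in COP-like cells (80.9 against 46.7 CPM, log2 ratio -0.79) and higher in preOB-like cells (98.2 against 203 CPM, 1.05), and Podn was higher in MALP-like cells (16.7 against 40.9 CPM, 1.30). Chadl, a relative of chondroadherin, was at 469.8 and 384 CPM in COP-like cells (-0.29). Ecm2 had 37.4 and 44.4 CPM in COP-like cells, and Tsku 13.9 and 11.9 CPM in OB-like cells. Of 32 genes that build and sulfate glycosaminoglycan chains, 1 was higher and 7 were lower among 27 in COP-like cells, 1 and 1 among 20 in OB-like cells, none and 2 among 8 in preOB-like cells, and 3 and 2 among 21 in MALP-like cells. The medians were -0.44, -0.29, -0.70 and 0.05 on the log2 scale, beside -0.21, -0.11, -0.15 and -0.06 over all genes. In these classes 5.83%, 5.55%, 7.73% and 6.79% of all genes were higher and 14.8%, 9.62%, 15.1% and 7.86% lower. Papss1, which makes the sulfate donor, was lower in OB-like cells (101 against 59.7 CPM, -0.76), while Dsel was at 10.6 and 16.5 CPM there (0.64, -0.08 to 1.41). Its relative Papss2 was at 572 and 703 CPM in COP-like cells (0.30). The chondroitin sulfotransferase gene Chst11 was at 466 and 397 CPM in COP-like cells (-0.23), and the sulfate transporter gene Slc26a2 was lower there (492 against 327 CPM, -0.59). Ugdh, which makes UDP-glucuronate, was at 58.2 and 101 CPM in preOB-like cells (0.80, -0.02 to 1.70). Chst2, a sulfotransferase, was lower in COP-like cells (40.2 against 18.2 CPM, -1.14) and in MALP-like cells (77.4 against 47.1 CPM, -0.72), and Chst1 had no UMI in vehicle COP-like cells and 69 in teriparatide ones. Dse, which makes dermatan sulfate, was lower in preOB-like cells (102 against 51.6 CPM, -0.98). Chpf2, a chondroitin-polymerising factor, was higher in MALP-like cells (32.3 against 60.3 CPM, 0.90).

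Of 30 fibrillar collagens and their partners, 1 was higher and 6 were lower among 24 in COP-like cells, 6 and 2 among 25 in OB-like cells, 3 and 1 among 22 in preOB-like cells, and 2 and 1 among 23 in MALP-like cells. The medians were -0.07, 0.24, 0.20 and 0.42, to be read beside the same medians and shares over all genes. Col1a1, the main chain of bone collagen, was at 133146 and 107862 CPM in OB-like cells (-0.30) and at 25128 and 34632 CPM in preOB-like cells (0.46). Col1a2 was at 82287 and 79292 CPM in OB-like cells (-0.05) and higher in preOB-like cells (17453 against 29966 CPM, 0.78). Col2a1, the main cartilage collagen, was at 40558 and 42179 CPM in COP-like cells (0.06). Col1a1 was among the markers that scored OB-like cells, and Col2a1 among those for COP-like cells. Their ratios within those classes may in part come from that scoring. The lysyl oxidase gene Loxl2 was lower in OB-like cells (218 against 69.9 CPM, -1.64), and Col5a3 was higher there (1.27 against 20.0 CPM, 3.98). In COP-like cells Col3a1 was lower (59.7 against 15.7 CPM, -1.93) and Pcolce2, a collagen-processing enhancer, was higher (836 against 1325 CPM, 0.66). In preOB-like cells Tgfb2 was lower (113 against 55.2 CPM, -1.03) and Loxl3 higher (36.4 against 80.1 CPM, 1.14), and in MALP-like cells Tgfb3 was lower (67.6 against 33.2 CPM, -1.03) while Col2a1 was at 18.1 against 100.4 CPM (2.47). Col2a1 was at 8.60 and 48.7 CPM in hematopoietic-like cells, the measure of free RNA, and its values in MALP-like cells are not read as expression.

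The genes closest in pattern to each member were ranked by Pearson correlation of log2(CPM + 10) over the 14 combinations of class and library, among 9241 genes with at least 200 UMIs. These points share 2 libraries and the marker classes, so the values are descriptions. They include the 2 blood classes, where no member exceeded 8.18 CPM. Absence from blood cells can therefore give a high r whatever the order among the mesenchymal classes, and r without the blood classes was not computed. Aspn was closest to Tnn (r = 0.95), Slc20a2 (0.89) and Postn (0.89), of which Tnn and Postn were among the markers that defined preOB-like cells. Lum was closest to Sp7 (0.97), Ogn to Hdgfrp3 (0.996), Epyc to Lect1 (0.995) and Chad to Pcolce2 (0.988). The other leading genes were Copz2 for Dcn, Slc30a4 for Bgn, Zfp354c for Omd, Fgfrl1 for Prelp and Rpl10a for Fmod. Within the family, Bgn and Dcn (0.93), Chad and Epyc (0.92) and Dcn and Lum (0.91) had the highest r over these points. Bgn and Dcn nevertheless peaked in different mesenchymal classes. In vehicle MALP-like cells Bgn was at 3042 and Dcn at 689 CPM, and in vehicle OB-like cells they were at 2316 and 4086 CPM.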

How the data were processed

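Counts were the authors' UMI counts per gene and cell from 10x Genomics 3' v2 libraries, 1 per condition, made with Cell Ranger 2.1.0 on mm10 per the labels (the deposited matrix headers name software version 3.1.0). The features and barcodes tables gave gene and cell names. Cells with 200 to 6000 genes and at most 10% mitochondrial UMIs were kept. The upper limit was the study's guard against doublets, and no doublet caller was run. A cell's score for a class was the mean over its markers of log-normalised counts scaled to the 90th percentile of expressing cells. The cell joined its best class at a score of at least 0.2, a margin of 0.05 and 2 markers detected, and mesenchymal cells carried no Ptprc UMI. Sp7, shared by 2 lists, scored nothing. Total UMIs of a class set the scale. The study's test takes cells as replicates and was not used. Named genes were all members, the lists' 3 most counted genes or those with the largest ratio either way per class, and the genes of highest correlation. Members, lists and scoring were chosen with earlier results of these data known. Intervals and calls were tested on simulated Poisson counts, the model that the intervals assume. The simulation held no spread between cells or mice, so it checked the calculation only. Analyses used Python 3.11.15, scipy 1.17.1 and, for the clusters used as an alternative, Seurat 5.3.0.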

Additional observations from a re-analysis of the deposited data

Results flagged for a closer look

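For 3 members the ratio passed the 1.5-fold limit in opposite directions in different cell classes, and for Omd its sign also differed between the sexes, with no fold limit there. None of these differences was tested, since each condition was 1 library. The log2 ratio of teriparatide to vehicle for Dcn was 1.64 in hypertrophic-like cells and -0.76 and -0.90 in OB-like and preOB-like cells. For Omd it was 0.93 in COP-like cells against -0.75, -0.86 and -1.42 respectively in OB-like, in preOB-like and in MALP-like cells. Within OB-like cells, Omd was at 0.34 in male cells and -3.16 in female cells (10 of them with teriparatide). For Chad it was 2.05 in COP-like and -0.87 in hypertrophic-like cells. Omd in COP-like cells was at 0.96 in male and -1.29 in female cells, the latter from 18 and 25 UMIs. Below the fold, Bgn also went both ways over all cells, with -0.22 (-0.27 to -0.17) in COP-like, 0.15 (0.10 to 0.20) in OB-like and 0.32 (0.14 to 0.49) in preOB-like cells. The OB-like rise was not seen within sex, with 0.04 (-0.03 to 0.12) in male and -0.21 (-0.36 to -0.07) in female cells.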

How the results depend on the processing

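No paired analysis was possible because each condition was 1 library. Alternatives were another mitochondrial limit (20%), no upper gene limit, thinning to 3400 UMIs, clusters, each sex alone, a median scale, other gate margins, no count filter and a fold of 2. Leaving out the 1 cell richest in a member, or the Mepe cells, was chosen after seeing the data. Members lower in the teriparatide library numbered 3 in preOB-like cells, and 1 at the 20% limit, 1 after thinning, 1 with clusters, 5 in female cells and 0 at a fold of 2. In OB-like cells 3 became 0 in male cells and 0 at a fold of 2, in MALP-like cells 2 became 1 with clusters, and in COP-like cells 0 became 1 in female cells. Members higher numbered 2 in place of 1 in preOB-like cells with clusters, 1 in place of 2 in COP-like cells in female cells and at a fold of 2, 1 in place of 0 in MALP-like cells in male cells, with no margin and with no filter, and 1 in place of 0 in OB-like cells with no filter. The other 82 counts stayed within 1.5 times. A count that stayed could still name another member, as in male preOB-like cells, where the 1 member higher was Bgn and not Ogn. Beyond counts, 96 ratios between libraries moved, 3 turned and 187 did not, 62 class orders moved, 5 turned and 85 did not, and 44 shares moved and 116 did not. The turned signs were Omd in male OB-like (0.34) and female COP-like cells (-1.29), Lum in preOB-like clusters (0.090), and 5 orders of neighbouring classes: Dcn, OB-like over preOB-like, after thinning in teriparatide (-0.37) and in male vehicle cells (-0.55), Lum, preOB-like over OB-like, with clusters (-0.11), Bgn, MALP-like over COP-like, in female vehicle cells (-0.33), and Ogn, MALP-like over preOB-like, in female teriparatide cells (-0.84). The causes were not tested. Of 931 cells in the 4 main classes, 84.4% fell in the same class by clusters. Agreement was weaker for preOB-like cells: of the cells in the preOB-like cluster, 38.1% were preOB-like by the marker scores.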
